A study of Mus musculus with 12 samples.

Results

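The genes described here encode the muscle acetylcholine receptor and the proteins that gather it at the neuromuscular junction, the synapse between motor nerve and muscle fibre. There are 10 of them among the 18996 genes of the count table. They are the receptor subunit genes *Chrna1* (alpha), *Chrnb1* (beta), *Chrnd* (delta), *Chrng* (gamma) and *Chrne* (epsilon), the agrin gene *Agrn*, the genes *Musk*, *Dok7* and *Rapsn* of the agrin pathway, and the adhesion molecule gene *Ncam1*. They were found in the table by gene symbol. The set was proposed with the differences between the groups of these mice already known, so the values of these 10 genes are given as a description, without p-values. Whether any of them passed the thresholds named below is likewise a description and not a test.

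The muscle acetylcholine receptor is a channel of alpha, beta and delta subunits with either a gamma or an epsilon subunit. The form with gamma is made in the embryo along the whole fibre, and after birth the form with epsilon takes its place at the synapse, while muscle that loses its nerve or regenerates after injury makes the gamma subunit again. Agrin released by the nerve binds LRP4 on the fibre, which switches on the receptor kinase MuSK together with its adaptor DOK7, and rapsyn then clusters the receptors. NCAM is found outside the synapse in embryonic, denervated and regenerating muscle fibres and is concentrated at the junction in the innervated adult fibre.

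The study compared tissue beside the spine of BALB/c mice, 5 to 7 weeks old at the start, in 3 groups of 4, to see which changes accompany opening of the spinal canal. No operation mice gave intact paraspinal soft tissue. In SHAM mice paraspinal soft tissue was taken away but the lamina was left in place, and Laminectomy mice lost the lamina too. The samples of both surgical groups are titled scar tissues. Surgical tissue was collected on day 7 after surgery, and polyadenylated RNA of each sample was sequenced. All groups carried the same background strain and no transgene or drug, the sex of each sample is not given in the labels, and no group received a skin incision alone. The replicate numbers come from the labels, and the p-values below measure the spread between these samples.

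Between 16802989 and 18077868 reads per mouse were assigned to genes. Levels are given as CPM, counts per 1000000 of a library size scaled by the TMM method, and the log2 fold change between groups comes from a quasi-likelihood model (edgeR) over all 12 mice and 14765 genes with enough counts, which all 10 genes passed. A gene is named as called where its Benjamini-Hochberg adjusted p was below 0.05 and its absolute log2 fold change above 0.5. Depth limits the lowest levels: a count of 0 allows up to 3 counts, which is 0.154 to 0.210 CPM depending on the mouse and covers counting error only.

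SHAM replicate 1 stood apart from the other SHAM mice in muscle genes. Of 12 genes of mature muscle fibres, the summed level was 109645 to 155774 CPM in the No operation group, 7113, 9594 and 10450 CPM in SHAM replicates 2, 3 and 4, and 2583 CPM in SHAM replicate 1. Of 9 genes of regenerating fibres (embryonic myosins, myogenic factors and fusion proteins), the sum was 122 to 591 CPM in the No operation group, 1914, 1853 and 3025 CPM in SHAM replicates 2, 3 and 4, and 7.87 CPM in SHAM replicate 1. The tissue of this mouse thus held almost no regenerating muscle RNA, and fold changes and counts of called genes in the SHAM group are given with and without it. In Laminectomy replicate 1 the mature fibre sum was 3480 CPM, against 15017, 12651 and 11581 CPM in replicates 2, 3 and 4, and its regenerating fibre sum of 1849 CPM was also the lowest of its group, against 3031, 2410 and 2798 CPM. In bulk tissue, fewer muscle cells and less RNA per muscle cell cannot be told apart.

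The promoters of the gamma and epsilon genes show how the receptor genes differ in sequence near their starts. For 7 of the 10 genes a window of 300 bases, 250 before the start used for that window and 50 from it, was given in the RefSeq table (GRCm38.p6). *Chrnd*, *Rapsn* and *Ncam1* had no entry. The windows were searched on both strands for the E-box, the letters CANNTG, which is the recognition motif of basic helix-loop-helix factors such as MYOD1 and myogenin, for the E-box form CAGCTG, and for the N-box CCGGAA, a motif bound by ETS factors and known from synapse-specific muscle genes. The 250 bases before the start of the window's count are shown for the 2 subunit genes that exchange, for the alpha subunit gene and for *Musk*. They are read 5′ to 3′ on the strand of the gene, with E-boxes and N-boxes in capitals. Motif positions are counted from that start. It adjoins the outer bound of the gene, as given below, for *Chrng* and *Chrna1* and not for the other genes. The *Musk* gene is given from 58285729, so most of the *Musk* bases shown lie within the gene.

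Chrng (chr1:87205561-87205810, + strand): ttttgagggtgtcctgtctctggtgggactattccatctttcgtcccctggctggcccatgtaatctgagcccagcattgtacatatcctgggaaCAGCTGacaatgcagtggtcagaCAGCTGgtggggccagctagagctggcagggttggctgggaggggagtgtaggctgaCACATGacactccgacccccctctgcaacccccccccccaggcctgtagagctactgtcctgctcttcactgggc
Chrne (chr11:70619195-70619444, - strand): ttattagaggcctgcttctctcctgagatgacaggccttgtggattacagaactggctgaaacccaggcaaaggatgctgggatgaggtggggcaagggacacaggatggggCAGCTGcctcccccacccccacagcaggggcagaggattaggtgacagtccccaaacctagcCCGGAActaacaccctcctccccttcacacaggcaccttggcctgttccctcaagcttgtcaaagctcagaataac
Chrna1 (chr2:73580339-73580588, - strand): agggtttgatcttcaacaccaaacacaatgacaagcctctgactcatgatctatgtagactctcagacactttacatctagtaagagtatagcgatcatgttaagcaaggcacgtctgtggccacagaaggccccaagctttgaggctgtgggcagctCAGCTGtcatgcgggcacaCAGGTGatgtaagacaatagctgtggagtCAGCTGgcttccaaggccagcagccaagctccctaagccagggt
Musk (chr4:58285712-58285961, + strand): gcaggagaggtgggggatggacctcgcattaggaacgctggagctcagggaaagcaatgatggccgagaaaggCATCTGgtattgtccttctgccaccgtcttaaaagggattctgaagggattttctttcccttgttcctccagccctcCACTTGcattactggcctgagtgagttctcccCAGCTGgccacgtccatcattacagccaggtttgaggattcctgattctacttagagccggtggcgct

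The *Chrng* window held 2 copies of CAGCTG, at -155 to -150 and at -132 to -127 from the start, and 1 E-box of other letters at -75 to -70. The *Chrna1* window held 2 copies as well, at -92 to -87 and -44 to -39, with an E-box of other letters between them. The *Chrne* window had 1 CAGCTG, at -138 to -133, and was the only one of the windows of these 7 genes with an N-box, at -76 to -71. *Musk* had 1 CAGCTG, at -68 to -63, and 2 E-boxes of other letters, and *Chrnb1* had 3 E-boxes, none of them CAGCTG. Of 2 windows each, *Dok7* and *Agrn* had 1 E-box in a single window. No motif overlapped another. Over all 32851 windows of the table, 72.3% held at least 1 E-box, 16.3% at least 1 CAGCTG, 1.9% at least 2 copies of CAGCTG and 14.9% an N-box. A match of letters is a description and does not show that a factor bound there.

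The gamma subunit gene *Chrng* (identifier 11449, on chromosome 1 of GRCm38 from 87205811 to 87211835) was close to the limit of detection in uninjured tissue and present in nearly all operated mice. It was at 0.345, 0, 0.333 and 0.561 CPM in No operation replicates 1 to 4, from 5, 0, 5 and 8 counts. In SHAM mice it was at 0, 25.4, 21.2 and 27.8 CPM, and in the Laminectomy group at 20.3, 30.2, 28.1 and 28.0 CPM. Every Laminectomy mouse lay above every No operation mouse, and so did each SHAM mouse except replicate 1, which had no count of the gene. Against the No operation group, its log2 fold change was 5.90 (standard error 1.20) in the SHAM group, 6.32 (standard error 0.428) without SHAM replicate 1, and 6.42 (standard error 1.21) in the Laminectomy group.

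The epsilon subunit gene *Chrne* (identifier 11448, on chromosome 11 from 70614883 to 70619213) showed the opposite order. It was at 6.89, 16.2, 10.5 and 15.9 CPM in the No operation group. It was at 0, 1.60, 1.38 and 1.44 CPM in the SHAM group and at 0.476, 1.65, 1.66 and 2.92 CPM in the Laminectomy group. All 8 operated mice were below the lowest No operation mouse, and the levels of SHAM and Laminectomy mice overlapped. Against uninjured tissue its log2 fold change was -3.47 (standard error 0.746) in the SHAM group, -3.06 (standard error 0.519) without SHAM replicate 1, and -2.88 (standard error 0.720) in the Laminectomy group.

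Reads on a gene scale with its length, so the exchange of subunits was read from counts divided by exon length, 4163 bases for *Chrng* and 1690 for *Chrne*. On this scale *Chrng* made up 1.99%, 0%, 1.28% and 1.41% of *Chrng* plus *Chrne* in the No operation group (mean 1.17% ± 0.839, SD, n = 4). The share was 86.5%, 86.2% and 88.7% in SHAM replicates 2 to 4 (87.1% ± 1.34, SD, n = 3). SHAM replicate 1 had no count of either gene, so it has no share. In Laminectomy mice the share was 94.5%, 88.2%, 87.3% and 79.6% (87.4% ± 6.14, SD, n = 4). The exact binomial 95% intervals (Clopper-Pearson, counting error only) reached at most 4.67% in the No operation group and began at 74.7% or higher in the operated mice with a share. They did not overlap between Laminectomy replicate 1 (90.0% to 97.4%) and Laminectomy replicate 4 (74.7% to 83.9%), so these mice differed by more than counting error. The means of the SHAM and Laminectomy groups differed by less than the SD of either group. The summed level of *Chrng* and *Chrne* per exon length spanned 4.16 to 9.58 CPM per kb in the No operation group, 5.92 to 7.53 in SHAM replicates 2 to 4 and 5.17 to 8.45 in the Laminectomy group, so the sum overlapped among the groups, while the share in uninjured tissue lay apart from that in every operated mouse with a count.

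**Figure D1:**
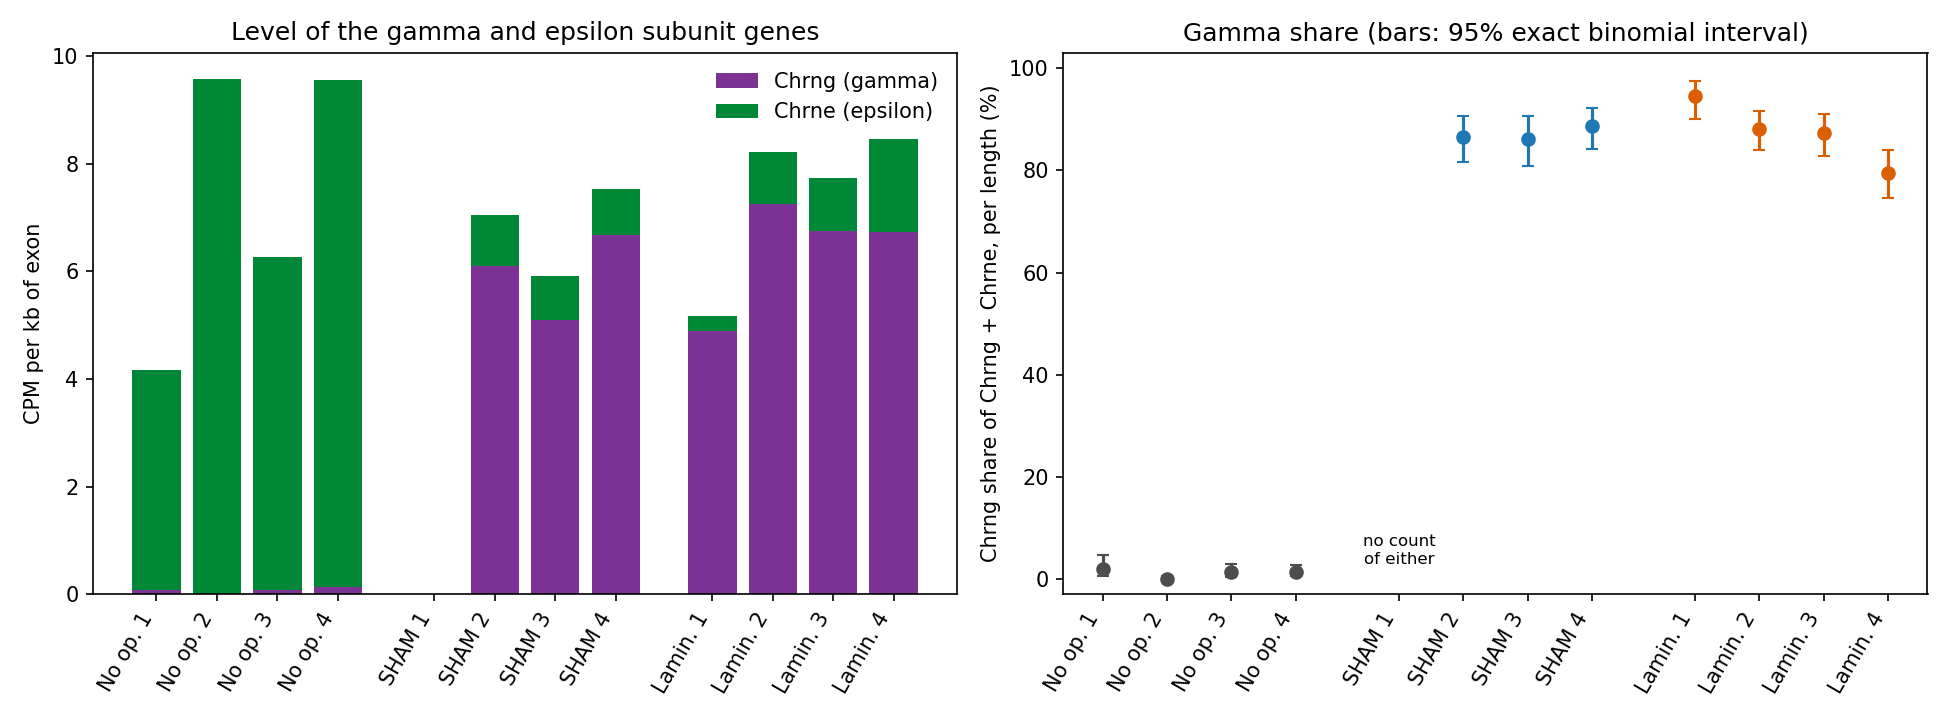
Left, level of *Chrng* and *Chrne* in each mouse in CPM per kb of exon, stacked; right, the *Chrng* share of their sum in percent, with points for mice and bars for exact 95% binomial intervals. No operation mice had a share of at most 1.99%, and the operated mice with a count of either gene lay between 79.6% and 94.5%.

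Of the subunits common to both receptor forms, alpha and delta were higher in all operated mice but SHAM replicate 1, and beta was not higher in either surgical group. The alpha subunit gene *Chrna1* (identifier 11435, on chromosome 2 from 73563281 to 73580338), which carries most of the acetylcholine binding site, was at 32.7, 29.0, 21.3 and 26.6 CPM in the No operation group. It was at 1.80, 89.9, 82.1 and 108.6 CPM in the SHAM group and at 101.8, 124.1, 131.8 and 122.6 CPM in the Laminectomy group. All Laminectomy mice lay above all No operation mice, as did SHAM replicates 2 to 4, and SHAM replicate 1 was the lowest of the 12. Its log2 fold change was 1.37 (standard error 0.716) in the SHAM group, 1.77 (standard error 0.151) without SHAM replicate 1, and 2.13 (standard error 0.731) in the Laminectomy group. The call in the Laminectomy group was lost without No operation replicate 3 (log2 fold change 2.03) or replicate 4 (2.12).

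The delta subunit gene *Chrnd* (identifier 11447, on chromosome 1 from 87190597 to 87200070) lies upstream of *Chrng* on the same strand. It was at 6.62, 4.28, 3.93 and 4.91 CPM in the No operation group. It was at 0.169, 36.0, 23.9 and 32.3 CPM in the SHAM group and at 27.7, 37.8, 37.6 and 38.7 CPM in the Laminectomy group. As for *Chrna1*, SHAM replicate 1 was the lowest mouse, and all other operated mice lay above every No operation mouse. The log2 fold change was 2.23 (standard error 0.811) in the SHAM group, 2.64 (standard error 0.202) without SHAM replicate 1, and 2.85 (standard error 0.825) in the Laminectomy group. In SHAM mice the call was lost when any of No operation replicates 2, 3 and 4 or SHAM replicates 2, 3 and 4 was left out, with log2 fold changes of 1.93 to 2.22. It was also lost when the Laminectomy group was not in the fit (log2 fold change 2.23).

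The beta subunit gene *Chrnb1* (identifier 11443, on chromosome 11 from 69784036 to 69795966) was at 85.6, 42.9, 40.7 and 58.0 CPM in the No operation group. It was at 5.0, 39.2, 27.1 and 35.9 CPM in the SHAM group and at 25.1, 44.4, 44.8 and 48.1 CPM in the Laminectomy group. SHAM mice were all below the No operation group, and Laminectomy mice overlapped them. On the log2 scale the fold change was -1.08 (standard error 0.484) in the SHAM group, -0.74 (standard error 0.287) without SHAM replicate 1, and -0.48 (standard error 0.479) in the Laminectomy group.

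The proportions among these 3 subunits differed between uninjured and operated tissue. Per exon length, the ratio of *Chrna1* to *Chrnb1* was 0.294 ± 0.0715 (SD, n = 4) in the No operation group and 1.78 ± 0.386 (SD, n = 4) in the Laminectomy group. In SHAM mice it was 0.207 in replicate 1 and 1.32, 1.75 and 1.75 in replicates 2 to 4. The ratio of *Chrnd* to *Chrnb1* was 0.0689 ± 0.00803 (SD, n = 4) in the No operation group, 0.693 ± 0.106 (SD, n = 4) in the Laminectomy group, and 0.0259, 0.708, 0.680 and 0.693 in SHAM replicates 1 to 4. For both ratios the Laminectomy mice and SHAM replicates 2 to 4 lay above all No operation mice. SHAM replicate 1 was below all of them.

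**Figure D2:**
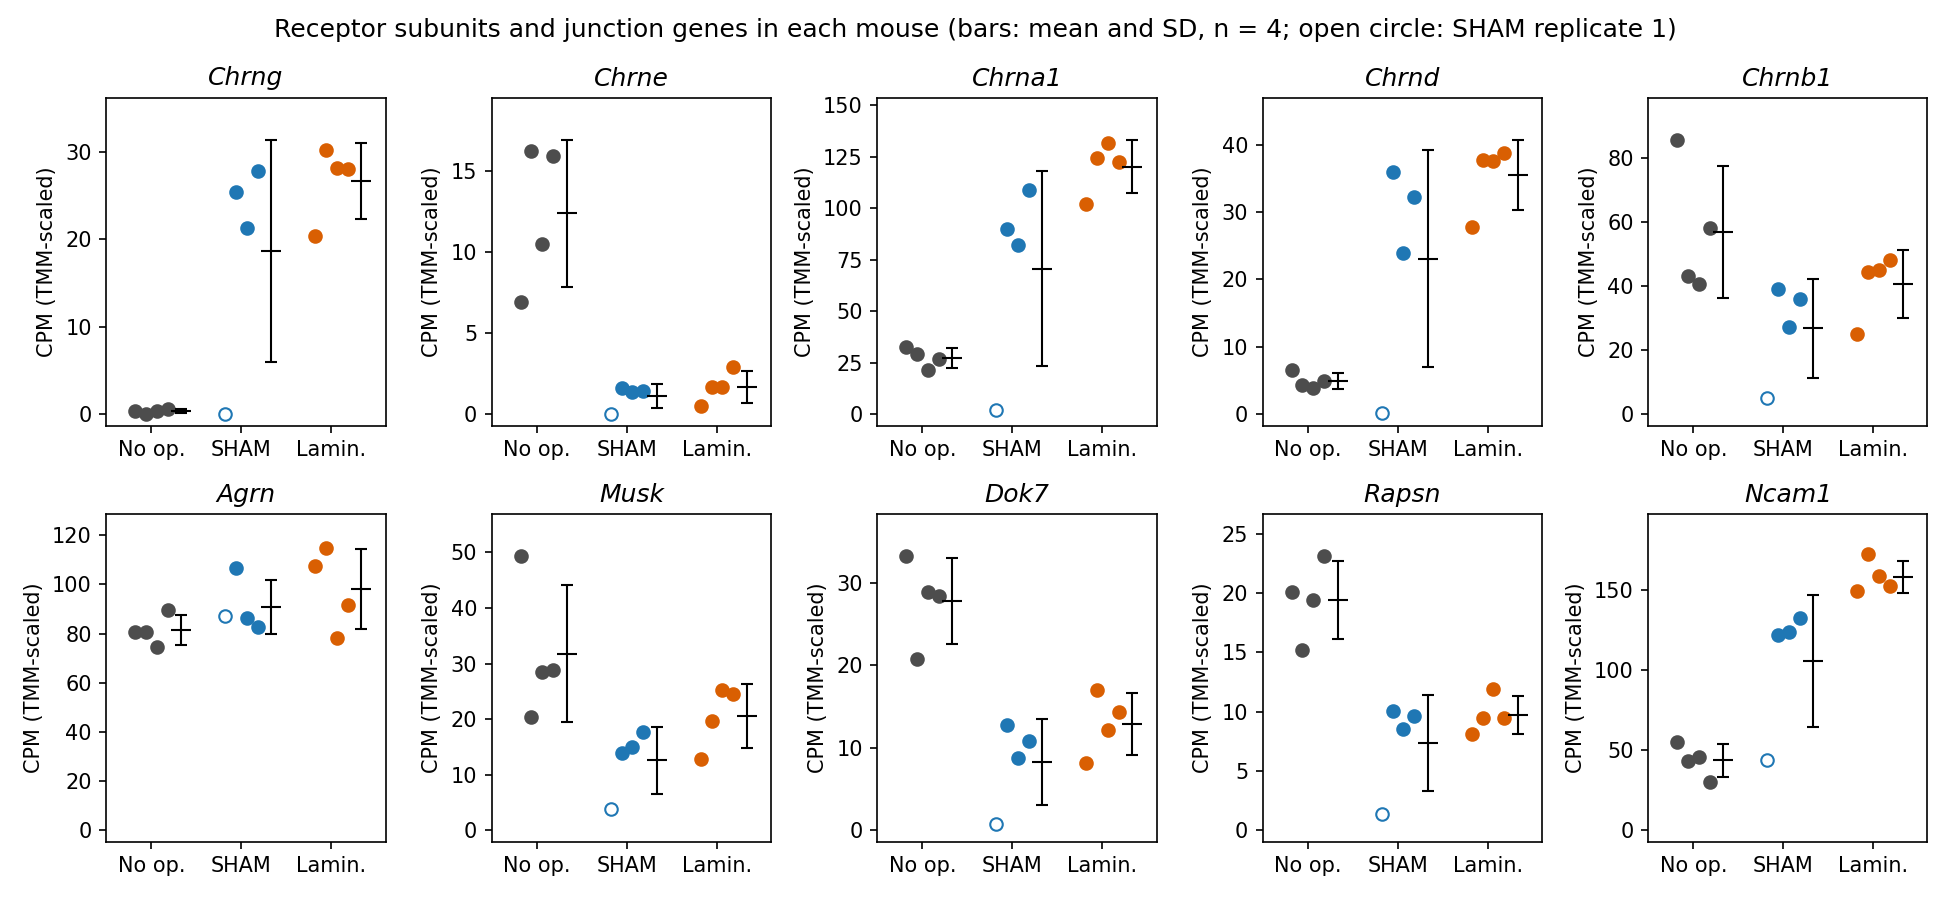
CPM of the 10 genes in each mouse by group, with points for mice (the open circle is SHAM replicate 1) and bars for the mean and SD of 4 mice, on a separate linear scale for each gene. *Chrng*, *Chrna1*, *Chrnd* and *Ncam1* were higher in every Laminectomy mouse than in any No operation mouse, *Chrne*, *Dok7* and *Rapsn* were lower in every Laminectomy mouse, and the groups overlapped for *Agrn*.

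The genes of the agrin pathway did not share the pattern of the gamma, alpha and delta genes. *Agrn* (identifier 11603, on chromosome 4 from 156165290 to 156197533), which is made by motor neurons, muscle and other cells, was at 80.6, 80.8, 74.7 and 89.7 CPM in the No operation group, 87.2, 106.8, 86.3 and 82.9 CPM in the SHAM group and 107.5, 114.9, 78.4 and 91.5 CPM in the Laminectomy group. The 3 groups overlapped, and the log2 fold change against the No operation group was 0.16 (standard error 0.127) after SHAM surgery, 0.18 (standard error 0.140) without SHAM replicate 1, and 0.27 (standard error 0.127) after laminectomy. SHAM replicate 1 did not stand apart in this gene. The nerve-derived and other forms of agrin differ by splicing and are not told apart by a count per gene.

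The agrin receptor kinase gene *Musk* (identifier 18198, on chromosome 4 from 58285729 to 58377848) was at 49.4, 20.4, 28.6 and 28.8 CPM in the No operation group, 3.82, 13.9, 15 and 17.6 CPM in the SHAM group and 12.9, 19.6, 25.3 and 24.4 CPM in the Laminectomy group. SHAM mice were all below the No operation group, and Laminectomy mice overlapped them. Its log2 fold change was -1.33 (standard error 0.414) after SHAM surgery and -0.63 (standard error 0.406) after laminectomy. SHAM replicate 1 was again the lowest mouse, and without it the value in the SHAM group was -1.03.

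*Dok7* (identifier 231134, on chromosome 5 from 35056571 to 35087839), the adaptor that activates MuSK, was at 33.2, 20.7, 28.8 and 28.5 CPM in the No operation group, 0.787, 12.7, 8.79 and 10.8 CPM in the SHAM group and 8.15, 17.1, 12.2 and 14.3 CPM in the Laminectomy group. *Rapsn* (identifier 19400, on chromosome 2 from 91035472 to 91045729), the receptor-clustering scaffold, was at 20.1, 15.2, 19.4 and 23.1 CPM in the No operation group, 1.40, 10.1, 8.53 and 9.61 CPM in the SHAM group and 8.10, 9.46, 11.9 and 9.44 CPM in the Laminectomy group. For both genes all 8 operated mice were below the lowest No operation mouse. The log2 fold change of *Dok7* was -1.75 (standard error 0.547) after SHAM surgery and -1.10 (standard error 0.535) after laminectomy, and that of *Rapsn* was -1.39 (standard error 0.428) and -1.0 (standard error 0.423). Without SHAM replicate 1, the lowest mouse in both genes, the values in the SHAM group were -1.37 (standard error 0.248) for *Dok7* and -1.05 (standard error 0.169) for *Rapsn*. After laminectomy neither gene was called with all 12 mice, and both were called when SHAM replicate 1 was left out of the shared fit (-1.09 and -0.99) or when the SHAM group was not in the fit (-1.09 and -0.98). An exon of *Rapsn* shares 4 bases with a gene on the opposite strand (Gm13778) that the table does not list.

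*Ncam1* (identifier 17967, on chromosome 9 from 49502129 to 49799393) was at 55.5, 43.5, 45.9 and 30.4 CPM in the No operation group, 44.2, 122.4, 123.9 and 132.9 CPM in the SHAM group and 149.6, 172.5, 159.0 and 152.5 CPM in the Laminectomy group. SHAM replicate 1 lay among the No operation mice, and every Laminectomy mouse lay above every SHAM mouse. The log2 fold change against the No operation group was 1.27 (standard error 0.292) in the SHAM group, 1.53 (standard error 0.162) without SHAM replicate 1, and 1.85 (standard error 0.297) in the Laminectomy group. Schwann cells and neurons also make NCAM, and exons of *Ncam1* share 417 bases with a gene on the opposite strand (Gm11149) that the table does not list. The study names default settings for the counting tool, which do not use strand, so reads of the 2 genes where they overlap cannot be told apart. Without Laminectomy replicate 2, whose nerve genes were far above those of the other mice, the value in the Laminectomy group was 1.81 (standard error 0.324).

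Over the 10 genes, 7 were called in the SHAM group against the No operation group, 3 higher (*Chrnd*, *Chrng*, *Ncam1*) and 4 lower (*Chrne*, *Musk*, *Dok7*, *Rapsn*), where 50.8% of all genes tested were called. Without SHAM replicate 1 the count was 9, 4 higher and 5 lower, where 48.2% of all genes were called (24.5% higher and 23.7% lower). In Laminectomy mice 5 were called, 4 higher (*Chrna1*, *Chrnd*, *Chrng*, *Ncam1*) and 1 lower (*Chrne*), where 48.6% of all genes were called, and 7 (4 higher, 3 lower) without SHAM replicate 1, where 49.1% were called (24.7% higher and 24.3% lower). The 4 genes higher in the Laminectomy group did not overlap between the groups, nor did 3 lower genes, where 27% of all genes were higher and 29% lower without overlap. In SHAM mice 5 genes were lower without overlap (27.8% of all genes) and 0 higher (26.7% of all genes). With SHAM replicate 1 left out, 5 were lower and 4 higher (*Chrna1*, *Chrnd*, *Chrng*, *Ncam1*), where 29.4% and 29.2% of all genes were. The genes were chosen on these contrasts, so nothing is read from the counts. The median log2 fold change of the 10 genes was -0.46 after SHAM surgery (-0.28 without SHAM replicate 1) and -0.11 after laminectomy, against -0.00 and 0.01 over all genes, and the 2 comparisons share the No operation mice.

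**Figure D3:**
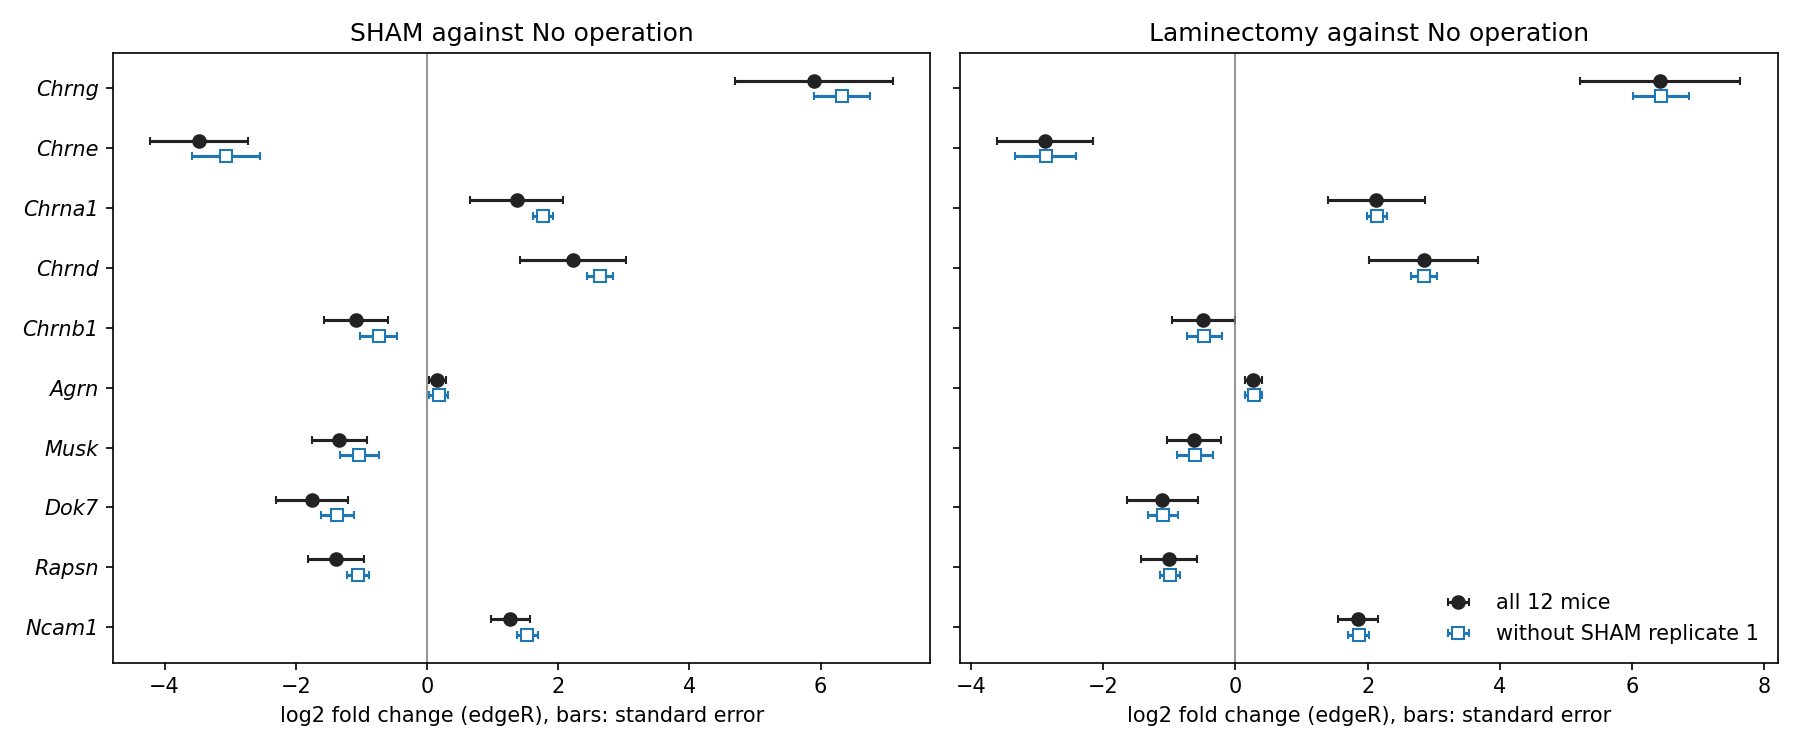
Log2 fold change of each of the 10 genes against No operation mice, with its standard error, for SHAM mice (left) and Laminectomy mice (right), in the fit of all 12 mice and in the fit without SHAM replicate 1. *Chrng* was farthest above 0 and *Chrne* farthest below 0 in both panels, and the standard errors of *Chrng*, *Chrna1* and *Chrnd* were smaller without SHAM replicate 1.

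Between the surgical groups none of the 10 genes was called, and neither was any other gene (0% of 14765 genes by edgeR). At an unadjusted p below 0.05 the count was 0 of the 10 genes, where 16% of all genes had such a p, and DESeq2 called 0 of them and 3.76% of all genes. Without SHAM replicate 1 the count at that unadjusted p was 1 of the 10 genes (*Chrna1*), where 10.3% of all genes had such a p. The log2 fold change of Laminectomy against SHAM mice was above 0 for all 10, from 0.11 for *Agrn* to 0.77 for *Chrna1*, with a median of 0.60 against 0.00 over all genes. Without SHAM replicate 1 the range was 0.06 to 0.41 and the median 0.24. For *Chrng* the value was 0.52 with all mice and 0.11 without SHAM replicate 1. *Ncam1* was the only one of the 10 genes without overlap between the surgical groups, where 5.06% of all genes were higher in the Laminectomy group without overlap.

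Levels of different genes were compared per kb of exon. In No operation mice the order ran from *Chrnb1* (22.4 ± 8.17 CPM per kb, SD, n = 4) through *Rapsn* (10.8 ± 1.82), *Agrn* (8.77 ± 0.663), *Musk* (8.42 ± 3.28), *Chrne* (7.31 ± 2.66), *Dok7* (6.51 ± 1.22), *Chrna1* (6.25 ± 1.09) and *Ncam1* (5.06 ± 1.19) to *Chrnd* (1.5 ± 0.363) and *Chrng* (0.0744 ± 0.0556). From *Agrn* to *Ncam1* neighbouring levels differed by about the SD of either gene or by less, and *Chrnd* and *Chrng* lay apart from the rest. In Laminectomy mice *Chrna1* led (27.4 ± 2.92 CPM per kb, SD, n = 4), followed by *Ncam1* (18.3 ± 1.18), *Chrnb1* (16.0 ± 4.14), *Chrnd* (10.8 ± 1.57), *Agrn* (10.6 ± 1.76), *Chrng* (6.40 ± 1.04), *Musk* (5.45 ± 1.51), *Rapsn* (5.40 ± 0.883), *Dok7* (3.03 ± 0.880) and *Chrne* (0.991 ± 0.590). Here *Ncam1* and *Chrnb1*, *Chrnd* and *Agrn*, and *Chrng*, *Musk* and *Rapsn*, were not separated beyond their spread. SHAM replicates 2 to 4 began with the same 3 genes, *Chrna1* at 21.3 ± 3.11, *Ncam1* at 14.6 ± 0.654 and *Chrnb1* at 13.5 ± 2.46 CPM per kb (SD, n = 3), and ended with *Chrne* at 0.872 ± 0.0695.

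The amount of muscle RNA differed between the groups along with these genes. All 12 genes of mature fibres were called lower in both surgical groups, with a median log2 fold change of -4.12 after SHAM surgery and -3.61 after laminectomy. Of the 9 genes of regenerating fibres, 7 were called higher and 0 lower in each surgical group, with medians of 4.31 and 4.91. Of 6 fibroblast genes, 5 were called higher and 1 lower after SHAM surgery and 4 and 1 after laminectomy. Of 6 macrophage genes, 6 and 5 were called higher and 0 lower, and of 6 endothelial genes, 0 were called higher and 3 lower in each surgical group. Each of these counts was the same without SHAM replicate 1, where the medians were -3.83 and -3.60 for mature and 4.71 and 4.92 for regenerating fibre genes. Of all genes, 50.8% were called after SHAM surgery and 48.6% after laminectomy. The median of the summed level of the fibroblast genes was 22510 CPM in uninjured tissue, 64361 CPM after SHAM surgery and 56873 CPM after laminectomy. That of the macrophage genes was 408, 1896 and 1196 CPM, and that of the endothelial genes 727, 578 and 558 CPM. The part of cell composition in the levels of the 10 genes was not tested.

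Set against the summed CPM of the 12 mature fibre genes, the median of each of the 10 genes was higher in both surgical groups than in uninjured tissue. *Chrne* was at 6.06, 14.8, 7.93 and 10.2 CPM per 100000 CPM of the fibre genes in the No operation group, at 0, 22.6, 14.4 and 13.8 in the SHAM group and at 13.7, 11, 13.1 and 25.2 in the Laminectomy group. The log2 ratio of the group medians against the No operation group turned from lower to higher, at 0.63 after SHAM surgery and 0.56 after laminectomy, and the groups overlapped. *Rapsn* was at 13.8 to 17.6 in the No operation group and at 54.4 to 233 on this scale in the operated mice. *Chrng* was at 0 to 0.360 in the No operation group, at 0, 356, 221 and 266 in the SHAM group and at 584, 201, 222 and 242 in the Laminectomy group. The values of Laminectomy replicate 1 were high on this scale for most of the 10 genes, as its summed fibre level was the lowest of its group.

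**Figure D4:**
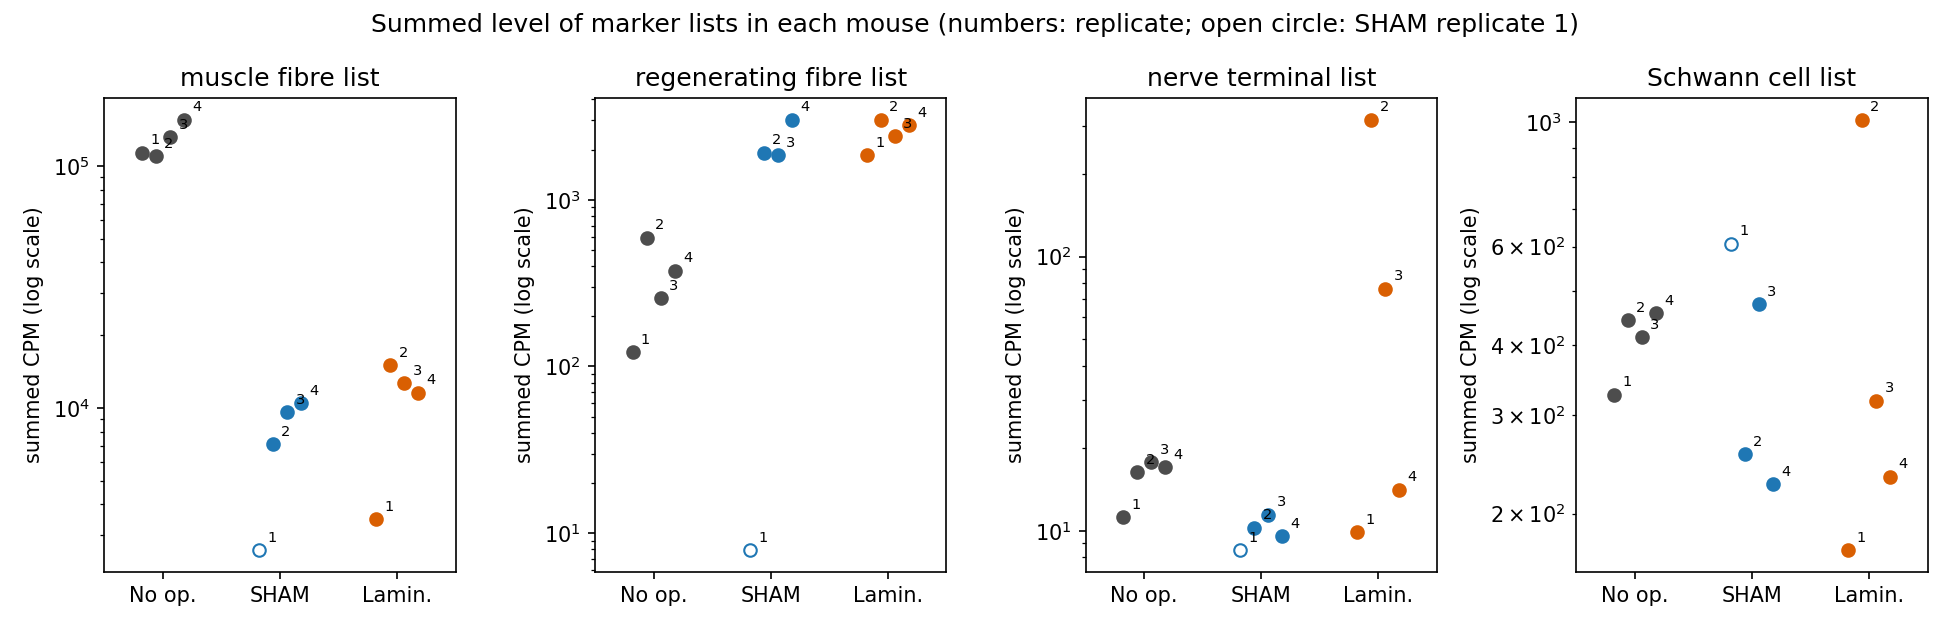
Summed CPM of genes of mature muscle fibres, regenerating fibres, nerve terminals and Schwann cells in each mouse, on log scales, with the replicate number beside each point and an open circle for SHAM replicate 1. Mature fibre genes were at 2583 to 15017 CPM in operated mice against at least 109645 CPM in No operation mice, SHAM replicate 1 was at 7.87 CPM of regenerating fibre genes, and Laminectomy replicate 2 was highest in nerve terminal and Schwann cell genes.

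Genes whose level followed *Chrng* and *Chrne* most closely were sought among 14012 genes with a mean of at least 1 CPM, by Pearson's r of log2 CPM over the 12 mice. The mice share their group differences, their depth and the low muscle content of SHAM replicate 1, so r is a description only. The 5 genes most like *Chrng* were *Mymk* (r = 0.993), *Shisal1* (0.992), *Myh8* (0.985), *Myl4* (0.984) and *Myh3* (0.984). *Mymk* encodes myomaker, a protein of myoblast fusion, and was at 0.126 to 0.533 CPM in the No operation group, 0.112, 43.6, 38.4 and 55.6 CPM in the SHAM group and 50.7 to 63.9 CPM in the Laminectomy group. *Myh8* and *Myh3* encode the perinatal and the embryonic myosin heavy chain. The 5 genes most like *Chrne* were *Myl1* (r = 0.992), *Pik3c2b* (0.989), *Klhl31* (0.988), *Best3* (0.985) and *Mylpf* (0.984). *Myl1* and *Mylpf* encode myosin light chains of fast fibres, and *Mylpf* was at 3242 to 6245 CPM in the No operation group, 96.3 to 1054 CPM in the SHAM group and 369 to 1129 CPM in the Laminectomy group.

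The wider set of 40 genes of the junction, other than the 10, shifted more often down than up. In SHAM mice 6 were called higher and 20 lower, 7 and 17 without SHAM replicate 1, where 25.7% of all genes were called higher and 25.1% lower. In Laminectomy mice 5 were called higher and 13 lower, 5 and 16 without SHAM replicate 1, where 24.2% and 24.4% of all genes were. The median log2 fold change was -0.55 after SHAM surgery (-0.45 without SHAM replicate 1) and -0.38 after laminectomy, against -0.00 and 0.01 over all genes. Between the surgical groups edgeR called 0 of the 40, and 5 had an unadjusted p below 0.05, as did 16% of all genes.

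Among the largest decreases in Laminectomy mice of genes called in this set were those of *Scn4a*, *Ppargc1a* and *Fgfbp1*. *Scn4a*, the sodium channel of muscle that starts the action potential, was at 434 to 649 CPM in the No operation group, 7.98 to 41.6 CPM in the SHAM group and 15 to 57.3 CPM in the Laminectomy group, and fell in both surgical groups (log2 fold change -4.10 and -3.56, adjusted p = 6.02e-05 and 0.000159 by edgeR). *Ppargc1a*, a coactivator of oxidative metabolism that also acts on junction genes, fell in both (log2 fold change -4.11 and -3.38, adjusted p = 2.23e-05 and 7.05e-05, edgeR). *Fgfbp1*, a secreted carrier of fibroblast growth factors, fell as well (-2.65 and -2.80, adjusted p = 0.00108 and 0.000886, edgeR) from 2.07 to 4.03 CPM in the No operation group. Leaving out SHAM replicate 1 gave values in the SHAM group of -3.78 for *Scn4a*, -3.96 for *Ppargc1a* and -3.06 for *Fgfbp1*. With all mice, the genes of mature fibres had median log2 fold changes of -4.12 after SHAM surgery and -3.61 after laminectomy. Levels of the wider junction set were not divided by those of fibre genes, and the part of muscle RNA in these decreases was not tested.

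Among genes of this set called in either surgical group, the 4 largest increases in Laminectomy mice were those of *Nrg1*, *Gmppb*, *Nes* and *Erbb2*. *Gmppb*, an enzyme of sugar donor synthesis for dystroglycan that is mutated in some myasthenic syndromes, rose in both groups, from 9.04 to 18.2 CPM in the No operation group to 28.3 to 31.8 CPM in the SHAM group and 31.1 to 43.2 CPM in the Laminectomy group (log2 fold change 1.17 and 1.39, adjusted p = 0.000214 and 8.68e-05, edgeR). *Erbb2*, a receptor subunit for neuregulin, rose by 0.71 and 0.88 on the log2 scale (adjusted p = 0.00109 and 0.000323, edgeR). The values after SHAM surgery were 1.20 for *Gmppb* and 0.82 for *Erbb2* without SHAM replicate 1. *Nrg1*, the neuregulin ligand, was at 0 to 5.44 CPM in the No operation group, 6.63 to 18.6 CPM in the SHAM group and 5.24 to 9.27 CPM in the Laminectomy group. It rose in the SHAM group (2.82, adjusted p = 0.0126, edgeR), with a value of 2.57 without SHAM replicate 1 and 4.50 without No operation replicate 1. Its value of 1.89 in the Laminectomy group did not pass (adjusted p = 0.0677, edgeR) but passed without No operation replicate 1 (3.57). *Nes*, an intermediate filament gene of young muscle and of the junction, rose in the Laminectomy group (1.17, adjusted p = 0.0153, edgeR) and had a value of 0.51 in the SHAM group (adjusted p = 0.233), which passed without SHAM replicate 1 (0.82).

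**Figure D5:**
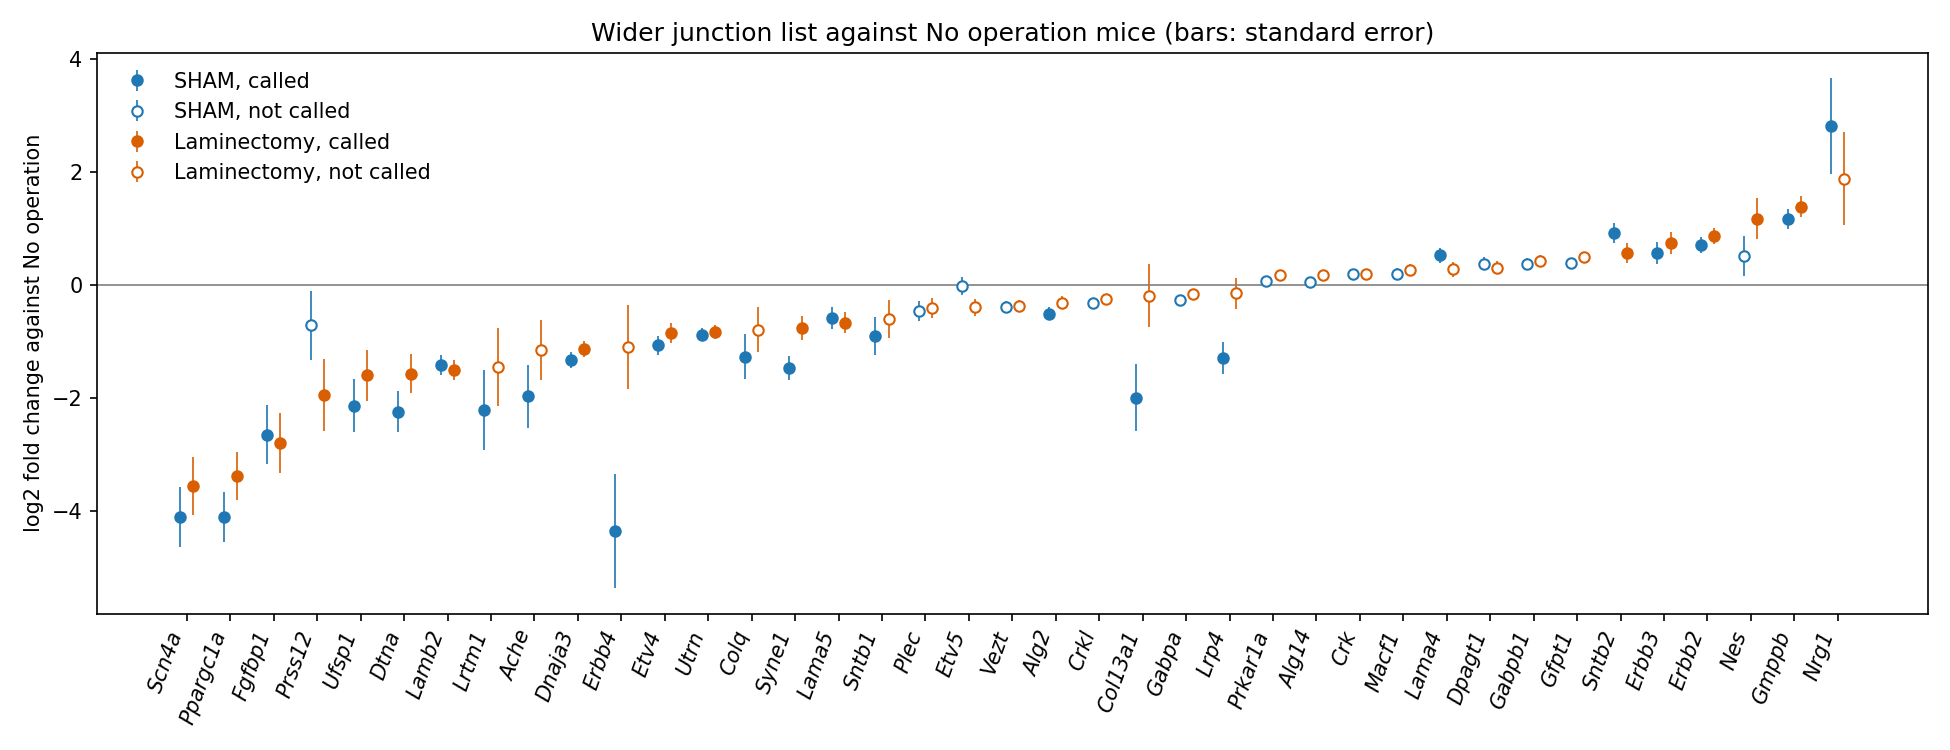
Log2 fold change against No operation mice, with its standard error, of further junction genes, ordered by the value in Laminectomy mice, with filled points for genes that were called. Values of *Scn4a* and *Ppargc1a* were below -3 in both surgical groups and that of *Nrg1* was 2.82 in SHAM mice.

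The agrin receptor gene *Lrp4* differed between the surgical groups by DESeq2 and not by edgeR. It was at 30.4, 66.9, 57.1 and 34.3 CPM in the No operation group, 18.4, 17.9, 19.4 and 21.4 CPM in the SHAM group and 46.1, 60.6, 36.2 and 27.9 CPM in the Laminectomy group, so every Laminectomy mouse lay above every SHAM mouse. The log2 fold change of Laminectomy against SHAM mice was 1.15 (adjusted p = 0.114 by edgeR and 0.00594 by DESeq2). DESeq2 also called *Col13a1*, a transmembrane collagen of the junction (1.82, adjusted p = 0.179 by edgeR and 0.0355 by DESeq2), and *Syne1*, which anchors nuclei (0.72, adjusted p = 0.152 by edgeR and 0.0341 by DESeq2). In the fit without SHAM replicate 1 edgeR gave 1.13 for *Lrp4*, 1.52 for *Col13a1* and 0.53 for *Syne1*, and called none of them. These 3 genes were named after their values were seen.

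Of 12 genes known to respond to denervation, 11 were tested. In SHAM mice 3 were called higher and 3 lower, 5 and 3 without SHAM replicate 1, and in the Laminectomy group 5 were called higher and 3 lower, with medians of -0.12 and 0.13. The median in the SHAM group was 0.17 without SHAM replicate 1, so its sign rests on that mouse. Of all genes, 25.7% were called higher and 25.1% lower in SHAM mice and 24.2% and 24.4% in Laminectomy mice. The 3 that fell, named after their values were seen, were the same in both groups. They were *Hdac4* (log2 fold change -0.85 and -1.05), *Hdac9* (-1.17 and -1.42) and *Dach2* (-2.66 and -2.03), genes of transcriptional corepressors, with values in SHAM mice of -0.93, -1.20 and -2.72 without SHAM replicate 1. *Myh3* rose by 5.20 after SHAM surgery and 5.81 after laminectomy (adjusted p = 0.00273 and 0.00176, edgeR). *Myog*, the gene of the myogenic factor myogenin, was at 6.93 to 19.0 CPM in the No operation group, 0.955, 115, 70.1 and 95.5 CPM in the SHAM group and 119 to 133 CPM in the Laminectomy group, and rose by 2.61 and 3.46 (adjusted p = 0.0186 and 0.0052, edgeR). Its call in the SHAM group was lost without No operation replicate 3 (2.47, adjusted p = 0.0515, edgeR). In that group the values were 5.62 for *Myh3* and 3.03 for *Myog* without SHAM replicate 1. *Runx1*, a transcription factor that protects denervated muscle and is also made by blood cells, rose by 2.10 and 2.37 (adjusted p = 0.000547 and 0.000298, edgeR), and SHAM replicate 1, at 130 CPM, lay with the other SHAM mice (126 to 152 CPM). The value of *Runx1* in the SHAM group was 2.12 without it. *Myh3* and *Myog* also belong to the genes of regenerating fibres, so denervation and regeneration cannot be told apart by them.

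Nerve genes were sparse. Of 13 genes of nerve terminals in the table, 5 had enough counts to be tested, of which 1 was called higher and 1 lower in the SHAM group and 2 higher in the Laminectomy group, against 25.7% of all genes called higher and 25.1% lower after SHAM surgery and 24.2% and 24.4% after laminectomy. In the fit without SHAM replicate 1, 7 were tested, of which 1 was higher and 1 lower in the SHAM group and 4 were higher in the Laminectomy group. The 2 added calls were the neurofilament genes *Nefm* and *Nefh*, named after their values were seen, with 11, 1265, 144 and 5 and with 5, 803, 80 and 6 counts in Laminectomy replicates 1 to 4. Over all 13 genes the summed level was 11.2 to 17.8 CPM in the No operation group and 8.49 to 11.4 CPM in the SHAM group. In Laminectomy mice it was 9.90, 316, 76.3 and 14.1 CPM, so replicates 2 and 3 stood above the other mice. *Slc5a7*, the choline transporter of cholinergic endings, was at 0.0666 to 0.693 CPM in the No operation group (1 to 11 counts), 0.562 to 1.85 CPM in the SHAM group and 2.95 to 7.25 CPM in the Laminectomy group, and rose in both groups (2.59 and 4.12, adjusted p = 0.00785 and 0.000491, edgeR), with 2.85 in the SHAM group without SHAM replicate 1. Without No operation replicate 2, which held 11 of the counts against 1 in each other No operation mouse, the values were 4.24 and 5.77. *Chat* and *Slc18a3*, the genes of the enzyme that makes acetylcholine and of its vesicular transporter, were named after their values were seen. Both had 0 counts in every No operation and SHAM mouse. In the Laminectomy group *Chat* had 1, 15, 1 and 0 counts and *Slc18a3* had 0, 38, 1 and 0, so these defining genes of cholinergic endings had over 1 count in replicate 2 only. *Sv2a*, a synaptic vesicle protein gene, rose in the Laminectomy group (2.33, adjusted p = 0.00981, edgeR), from 14.5 CPM in replicate 2 and 6.11 CPM in replicate 3 against 1.11 and 1.93 CPM in the other Laminectomy mice, and the value without replicate 2 was 1.38. *Prph*, an intermediate filament gene of peripheral neurons, fell in the SHAM group (-1.94, adjusted p = 0.0194, edgeR), a call lost without No operation replicate 3 (-1.56) or SHAM replicate 3 (-1.74) and kept without SHAM replicate 1 (-1.82). Between the surgical groups DESeq2 called 7 of the 13 genes, where it called 3.76% of all genes, and of these 7 edgeR had tested 3 and called 0. The 3 were *Sv2a* (2.31, adjusted p = 0.0157 by DESeq2 and 0.149 by edgeR), *Prph* (2.12, adjusted p = 0.0342 by DESeq2 and 0.158 by edgeR) and *Syt2*, a synaptic vesicle calcium sensor gene named after its values were seen (5.20, adjusted p = 0.00289 by DESeq2 and 0.149 by edgeR). In Laminectomy replicates 1 to 4 *Prph* was at 1.22, 4.52, 0.881 and 1.51 CPM and *Syt2* at 0.0529, 24.3, 4.97 and 0.156 CPM, with replicate 2 highest in both. The other genes that DESeq2 called were *Nefm*, *Nefh*, *Snap25* and *Nefl*, the last 2 also named after their values were seen. In the same mice *Snap25* had 1, 1227, 458 and 0 counts and *Nefl* 0, 1241, 201 and 1. The Laminectomy counts of all of these came almost wholly from replicates 2 and 3. By edgeR the log2 fold changes of *Sv2a* and *Prph* between the surgical groups were 1.34 and 1.34 without Laminectomy replicate 2, and 2.18 and 1.98 without SHAM replicate 1.

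All 12 Schwann cell genes were tested, of which 3 were called higher and 0 lower in the SHAM group and 2 higher and 1 lower in the Laminectomy group, against 25.7% and 25.1% of all genes after SHAM surgery and 24.2% and 24.4% after laminectomy. With SHAM replicate 1 left out, 2 were higher and 0 lower in the SHAM group and 3 higher and 1 lower in the Laminectomy group. Their summed level overlapped among the groups, at 326 to 455 CPM in No operation, 226 to 607 CPM in SHAM and 172 to 1012 CPM in the Laminectomy group, with Laminectomy replicate 2 highest. *Egr2*, a factor of myelinating Schwann cells that other cells also make, rose by 2.24 and 2.45 (adjusted p = 0.000229 and 0.000157, edgeR), with 2.31 in the SHAM group without SHAM replicate 1. *Ngfr*, the p75 receptor gene of Schwann cells without axon contact, rose in the SHAM group (1.45, adjusted p = 0.0218, edgeR), a call lost without No operation replicate 1 (1.27) or 2 (1.32) or SHAM replicate 1 (0.86). Its value in the Laminectomy group was 1.05 (adjusted p = 0.0802, edgeR), which passed without No operation replicate 3 (1.38) or SHAM replicate 1 (1.06). *Pmp22*, a myelin protein gene, fell in the Laminectomy group (-0.94, adjusted p = 0.00959, edgeR) and was at -0.13 in the SHAM group (adjusted p = 0.687), or -0.34 without SHAM replicate 1. The part of nerve content in the levels of *Agrn* and *Ncam1* was not tested beyond leaving out Laminectomy replicate 2, without which *Agrn* had a log2 fold change of 0.18 in the Laminectomy group.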

How the data were processed

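RNA sequencing values of 12 mice (3 groups of 4, by the labels) were analysed. The authors prepared stranded mRNA libraries, aligned reads to GRCm38 with STAR (2.6.1b, per the submitters' processing notes), counted them per gene with featureCounts (2.0.1, default settings) and used DESeq2 (1.30.1) for their tests. They deposited 1 table of 18996 genes without normalization, treated as estimated counts, since 10.2% of the deposited values were not whole, and rounded (by at most 0.5). The study gives 3 mice per group without naming them, so all 4 were used. No library was a duplicate of another, and 18942 gene numbers matched the RefSeq annotation.

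Genes were filtered with filterByExpr, scaled with TMM and fitted with glmQLFit and glmQLFTest (edgeR 4.0.16, R 4.3.3) on group alone, and p-values were adjusted over all 14765 genes. DESeq2 1.42.0 was an alternative. CPM is the rounded count per 1000000 of the TMM-scaled library size, and log2 CPM used a prior count of 2. Levels per kb used the union of GENCODE exons. The standard error is the absolute log2 fold change divided by the square root of F. Exact binomial intervals came from scipy 1.17.1. The fit was tested on simulated counts.

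The 10 genes and the gene lists were chosen with earlier results of these data known. Beyond the 10, genes were named by rule: among junction genes called in a surgical group with at least 1 CPM in the higher group, the 4 largest increases and 4 largest decreases in Laminectomy mice, up to 3 called genes with the largest change from each list of denervation, neuronal receptor, nerve terminal and Schwann cell genes, and the 5 genes most like *Chrng* and *Chrne*. Alternatives were the normalization, the filter, the threshold, the samples in the fit, the unrounded values, leaving out each mouse, a replicate block, DESeq2, other lengths for the gamma share, and scaling to muscle fibre genes. No protein sequence was used here. A gene that the naming rule selects is not reported here.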

Additional observations from a re-analysis of the deposited data

Results flagged for a closer look

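In 119 groups of 4 values (a gene or summed list in a group), 10 had a highest or lowest mouse farther from the others than Dixon's 95% critical value for 4 samples allows. Chance alone does so in about 1 in 20 such groups. SHAM replicate 1 had no *Chrne* count (0 CPM), the lowest *Ncam1* of its group (44.2 CPM), and the highest summed macrophage level (3468 CPM). Laminectomy replicate 1 was lowest of its group in *Chrnb1* (25.1 CPM) and *Chrnd* (27.7 CPM), and also had the lowest summed mature fibre level of that group (3480 CPM). Laminectomy replicate 2 was highest in *Slc5a7* (7.25 CPM). No operation replicate 2 was highest of its group in *Slc5a7* (0.693 CPM), lowest in *Chrnb2* (0.945 CPM) and lowest in the summed 40 junction genes (3912 CPM). No operation replicate 1 was highest in the summed denervation genes (245 CPM).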

How the results depend on the processing

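At an absolute log2 fold change above 1 in place of 0.5, 4589 genes were called in SHAM mice in place of 7502, 4323 in Laminectomy mice in place of 7182, and 11 of the 40 junction genes in Laminectomy mice in place of 18. DESeq2 called 696 genes, 3 of them junction genes, between Laminectomy and SHAM mice, where edgeR called 0. Over fits that left out a single mouse, 6962 to 7636 genes were called in SHAM and 6530 to 7414 in Laminectomy mice, with 22 to 26 and 17 to 21 junction genes, and 0 between the surgical groups.

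The gamma share was 2.68% in No operation, 94.1% in SHAM and 94.1% in Laminectomy mice per coding length, and 2.81%, 94.3% and 94.4% without division by length. Leaving out a mouse gave 0.896% to 1.56%, 86.4% to 87.6% and 85.0% to 90.0%. Divided by the summed level of mature fibre genes, the log2 ratio of group medians against No operation mice turned from negative to positive in SHAM and Laminectomy mice for *Chrne* (0.63 and 0.56), *Musk* (3.01 and 3.35), *Dok7* (2.26 and 2.54), *Rapsn* (2.61 and 2.57) and *Chrnb1* (3.03 and 3.33).

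The deviations of mice with the same replicate number had correlations of -0.228 to 0.352. In Laminectomy against No operation mice they were 0.0687 to 0.352, with 3 of 4 over 0.1. In no comparison were all over 0.1, or did every mouse correlate best with its own number, so the numbers were not taken as pairs. With a replicate block, 24 junction genes were called in SHAM and 21 in Laminectomy mice, and 0 between them. The block ended the calls of *Chrna1* and *Chrnb2* in Laminectomy mice and of *Chrnd*, *Myog* and *Ngfr* in SHAM mice, and *Nrg1* in Laminectomy mice passed with it. Depth limits *Chrng* in No operation mice, which had at most 8 counts. Of the values of single genes, the fits that left out a mouse ended 21 calls and added 8, DESeq2 added 5, fits of only the 2 groups compared added 3 and ended 2, and no filter on low counts ended 1. RLE scaling and unrounded values changed no such call. The cause of these changes was not tested.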

Other observations

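Of 11 acetylcholine receptor subunit genes of neurons and sensory cells in the table, 2 had enough counts to be tested, and 4 without SHAM replicate 1. *Chrna10*, a subunit gene known from cochlear hair cells, was at 15.4, 7.49, 7.59 and 15.4 CPM in the No operation group, 0.225, 0.267, 0.583 and 0.374 CPM in the SHAM group and 0.212, 0.411, 0.570 and 1.15 CPM in the Laminectomy group. All operated mice were below all No operation mice, and it fell by 4.96 after SHAM surgery and 4.28 after laminectomy on the log2 scale (adjusted p = 1.73e-05 and 3.84e-05 by edgeR's quasi-likelihood test). Unlike *Chrne*, it was not at 0 in SHAM replicate 1, without which the value after SHAM surgery was -4.78. *Chrnb2*, a subunit gene of brain receptors, was at 0.945 to 1.47 CPM in the No operation group, 1.27 to 2.09 CPM in the SHAM group and 1.54 to 3.24 CPM in the Laminectomy group, and rose in the Laminectomy group (0.75, adjusted p = 0.0415, edgeR). That call was lost when any of No operation replicates 1 to 4, SHAM replicate 4, or Laminectomy replicates 2 and 3 was left out. Without Laminectomy replicate 2, the mouse with the highest nerve gene level, the value was 0.52 (adjusted p = 0.139, edgeR). *Chrna4*, tested only without SHAM replicate 1 and named after its values were seen, was called higher in the Laminectomy group there (2.18, adjusted p = 0.0381, edgeR), from 1, 39, 19 and 13 counts in replicates 1 to 4, and the fourth gene, *Chrna7*, was not (1.79, adjusted p = 0.0683).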
